A study of Homo sapiens with 6 samples.

Results

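The mismatch repair genes described here are *MSH3*, *MSH6*, *PMS1*, *PMS2*, *MLH3* and *EXO1*, 6 of the 60480 gene identifiers counted by RNA-seq in OE-19 cells, an established line of adenocarcinoma of the esophagogastric junction. They were chosen by gene symbol for their role, with earlier results of these data known. All 6 passed the low-count filter that left 19778 genes to test. The study silenced IGF2BP3, an RNA-binding protein that reads m6A-modified mRNAs, with shRNA (IGF2BP3 KD, 3 libraries) and compared these cells with cells carrying a control shRNA (control, 3 libraries), both grown in RPMI1640 medium with fetal bovine serum. All libraries are poly(A) RNA from the same line, and the sources used here do not say whether the 3 IGF2BP3 KD libraries carry the same hairpin or come from separate cultures, so p-values measure the spread between these libraries, which may be technical.

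Mismatch repair removes base mismatches and small loops that DNA polymerases leave behind the replication fork. MutS homologs find the error: *MSH6* encodes the subunit of the complex that reads single mismatches, and *MSH3* encodes its counterpart in the complex that reads larger loops. MutL homologs then act downstream, with *PMS2* carrying the endonuclease that nicks the new strand, *MLH3* a related endonuclease with a main role in meiosis, and *PMS1* a MutL homolog without such an active site. *EXO1* digests the nicked strand, after which the clamp PCNA, its loader, the RPA proteins, DNA polymerase delta and a ligase refill and close the gap.

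Of the 6 genes, 2 were lower, 1 was higher and 3 were not called in IGF2BP3 KD cells. *MSH6* fell by 26.8% and *EXO1* fell by 21.5%, while *PMS2* rose by 25.7%. *MSH3*, *PMS1* and *MLH3* had lower means in IGF2BP3 KD cells without passing the test. A gene was called where its adjusted p in the quasi-likelihood fit of edgeR was under 0.05, and a log2 fold change above 0 means a higher level in IGF2BP3 KD cells. Of all tested genes, 10.6% were called lower and 9.87% were called higher. The IGF2BP3 KD libraries did not overlap the control libraries in 3 of the 6 mismatch repair genes, namely the 3 called ones, against 35.8% of all tested genes. The median log2 fold change was -0.18 over the 6 genes and 0.01 over all tested genes.

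Total counts ranged from 58966114 to 69989087 in control and from 53424071 to 63008137 in IGF2BP3 KD libraries. *IGF2BP3* itself had 7416, 7363 and 6532 counts in control and 777, 792 and 794 in IGF2BP3 KD libraries. The epithelial markers *EPCAM*, *KRT8*, *KRT18*, *KRT19* and *CDH1* summed to 5597 to 5749 CPM (counts scaled to library size) over all libraries. No gene of the endothelial list exceeded 0.478 CPM, and *COL1A2* and *CD3E* were at 0 in every library. The fibroblast list, nearly all of it *COL1A1*, summed to 21.2 to 24.6 CPM in control and 29.7 to 34.4 CPM in IGF2BP3 KD libraries, and its part in the results was not tested. *LYZ*, a leukocyte marker that gastric epithelium also makes, reached 2700 CPM. Of 42 other genes that peak in S phase, 35 were lower and 1 was higher, against 10.6% and 9.87% of all tested genes. The median log2 fold change of these 42 genes was -0.37. Their summed level was 4339 to 4471 CPM in control and 3373 to 3409 CPM in IGF2BP3 KD libraries. The part of this shift in the values of the mismatch repair genes was not tested, and in bulk RNA fewer cells in S phase and less RNA per cell cannot be told apart.

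**Figure D1:**
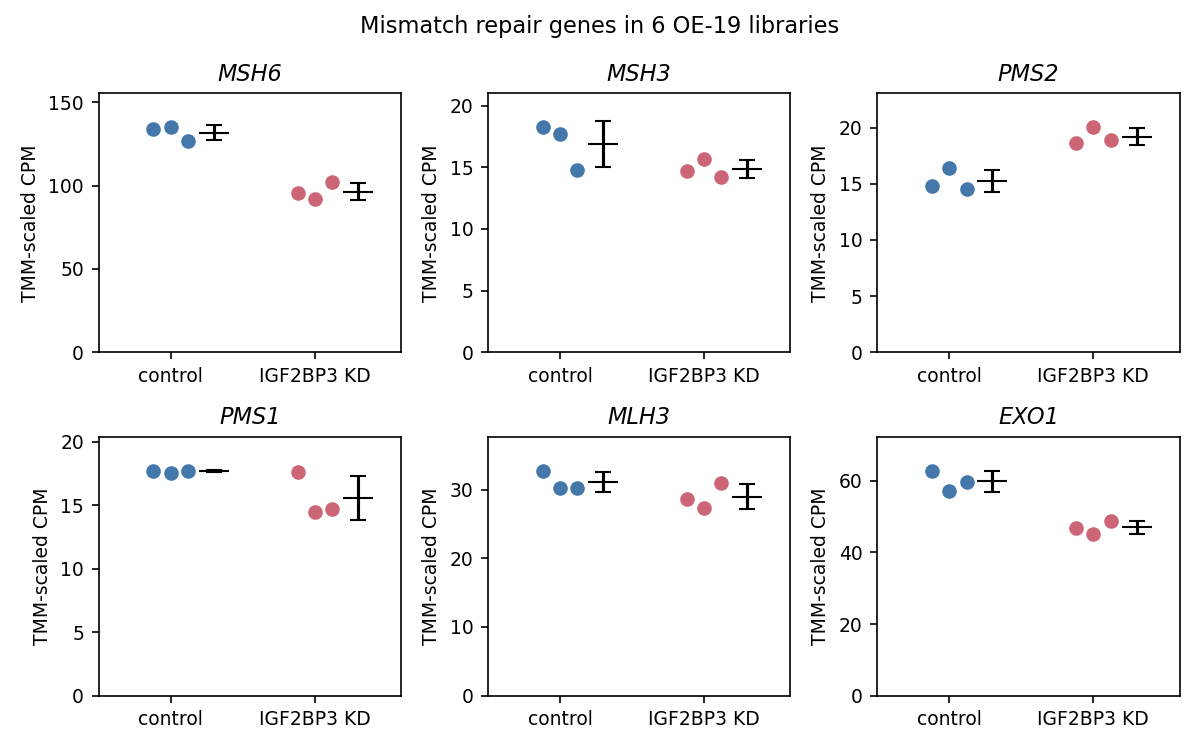
TMM-scaled CPM (y axis, from 0) of each mismatch repair gene in the 3 control (blue) and 3 IGF2BP3 KD (red) libraries, with the mean and SD in black beside the points. The groups are apart for *MSH6*, *EXO1* and *PMS2*, which is the 1 gene whose IGF2BP3 KD points lie above the control points.

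Of the mismatch sensors, *MSH6* (ENSG00000116062, plus strand, chr2:47695530-47810063, hg38) was counted 9156, 9403 and 7412 times in control replicates 1, 2 and 3, and 5148, 5697 and 6433 times in IGF2BP3 KD replicates 1, 2 and 3. Scaled with TMM, which removes differences in library size, these were 134, 135 and 127 CPM in control and 95.4, 91.8 and 102 CPM in IGF2BP3 KD cells. Every IGF2BP3 KD library was below every control library. The mean went from 132 ± 4.54 to 96.4 ± 5.22 CPM (SD, n = 3). This is a log2 fold change of -0.45 with a standard error of 0.05 (edgeR, adjusted p = 4.5e-05), and 9.22% of all tested genes had a lower value. Leaving out any 1 library gave values from -0.50 to -0.42, and *MSH6* was called in all 6 of these fits.

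*FBXO11*, which encodes an F-box protein of a ubiquitin ligase, lies on the opposite strand and shares 4022 bases of annotated exon with *MSH6*, 22.7% of its exon length, of which 530 lie in the canonical *MSH6* transcript. It was at 59.1 ± 3.26 CPM in control and 46.1 ± 1.64 CPM in IGF2BP3 KD cells and was called lower at -0.36. The library kit keeps strand, but the strand setting of the counting is not stated, so reads of these shared bases are uncertain. The sum of both genes had a log2 fold change of -0.42. Each gene was lower by itself, so the sum had to be lower and cannot tell whose reads fell.

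*MSH3* (ENSG00000113318, plus strand, chr5:80654652-80876815) was expressed at 18.3, 17.7 and 14.8 CPM in control and at 14.7, 15.7 and 14.2 CPM in IGF2BP3 KD replicates 1, 2 and 3. Control replicate 3 lay among the IGF2BP3 KD libraries, so the groups overlapped. The log2 fold change was -0.19, with a 95% interval from -0.39 to 0.02 (adjusted p = 0.20, edgeR). A fall as deep as that of *EXO1* thus lies within the interval of *MSH3*, while the point estimate of *MSH6* lies outside it.

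The within-library ratio of *MSH6* to *MSH3* addresses the balance of both sensors. Per kb of the canonical transcript, the ratio was 7.62, 7.95 and 8.93 in control and 6.77, 6.11 and 7.47 in IGF2BP3 KD replicates 1, 2 and 3. All 3 IGF2BP3 KD ratios were below the control ratios. The ratio in IGF2BP3 KD cells was 0.83 times that in control cells, a difference of -0.27 on the log2 scale. The two-sided exact permutation test gave p = 0.1, the smallest value that 3 against 3 libraries allow, and also 0.1 after adjustment over the 4 ratios computed.

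Of the MutL homologs, *PMS2* (ENSG00000122512, minus strand, chr7:5970925-6009130) was counted 1016, 1143 and 851 times in control and 1006, 1244 and 1190 times in IGF2BP3 KD replicates 1, 2 and 3. These were 14.8, 16.4 and 14.5 CPM in control and 18.6, 20.0 and 18.9 CPM in IGF2BP3 KD cells. Every IGF2BP3 KD library was above every control library once scaled. The mean rose from 15.3 ± 1.01 to 19.2 ± 0.748 CPM (SD, n = 3), and its log2 fold change was 0.33 with a standard error of 0.08 (edgeR, adjusted p = 0.0096). Without IGF2BP3 KD replicate 2 the value was 0.30 and the call was lost (adjusted p = 0.054). Without any 1 of the other 5 libraries *PMS2* was still called.

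*PMS2* has many partial copies in the genome that can share its reads. The table lists 14 entries of these pseudogenes, *PMS2CL* and the *PMS2P* genes, whose summed counts came to 46.1% to 62.4% of those of *PMS2*. They summed to 523, 527 and 531 counts in control and 575, 728 and 578 counts in IGF2BP3 KD replicates 1, 2 and 3. Of the 10 tested copies none was called, and 8 had a log2 fold change above 0, over a range from -0.15 to 1.11. With *PMS2* and all its copies summed, the log2 fold change was 0.35 (adjusted p = 0.0032, edgeR). How reads with several matches were counted is not stated, so the count of *PMS2* alone is uncertain. *PMS2* and its summed copies were each higher, so their sum had to be higher and cannot tell whose reads rose.

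*PMS1* (ENSG00000064933, plus strand, chr2:189784085-189877629) was at 17.7, 17.6 and 17.7 CPM in control and at 17.6, 14.5 and 14.7 CPM in IGF2BP3 KD replicates 1, 2 and 3. IGF2BP3 KD replicate 1 lay at the level of the control libraries and the other two lay below it. The log2 fold change was -0.18, with a 95% interval from -0.37 to 0.01 (adjusted p = 0.18, edgeR). Without IGF2BP3 KD replicate 1 it was -0.28 and was called (adjusted p = 0.037), so the outcome for *PMS1* depends on this library.

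*MLH3* (ENSG00000119684, minus strand, chr14:75013769-75051532) was at 32.8, 30.2 and 30.2 CPM in control and at 28.7, 27.3 and 31.0 CPM in IGF2BP3 KD replicates 1, 2 and 3. Replicate 3 of IGF2BP3 KD overlapped the control range. Its log2 fold change was -0.10 (95% interval from -0.25 to 0.05, adjusted p = 0.36, edgeR). Single libraries moved this value, to -0.06 without control replicate 1 or IGF2BP3 KD replicate 2 and to -0.15 without IGF2BP3 KD replicate 3, and *MLH3* was called in none of these fits.

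Ratios within each library set *PMS2* against the other MutL homologs, of which neither was called, so they largely restate the rise of *PMS2*. The ratio of *PMS2* to *PMS1*, per kb of the canonical transcripts, was 0.519, 0.579 and 0.509 in control and 0.657, 0.858 and 0.796 in IGF2BP3 KD replicates 1, 2 and 3. The groups did not overlap, and the ratio was 1.43 times as high in IGF2BP3 KD cells. The ratio of *PMS2* to *MLH3* was 0.696, 0.833 and 0.739 in control and 0.998, 1.13 and 0.935 in IGF2BP3 KD cells, 1.35 times as high and again without overlap. Both gave the smallest possible p of 0.1 in the exact permutation test, so the design cannot take either below a threshold of 0.05.

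**Figure D2:**
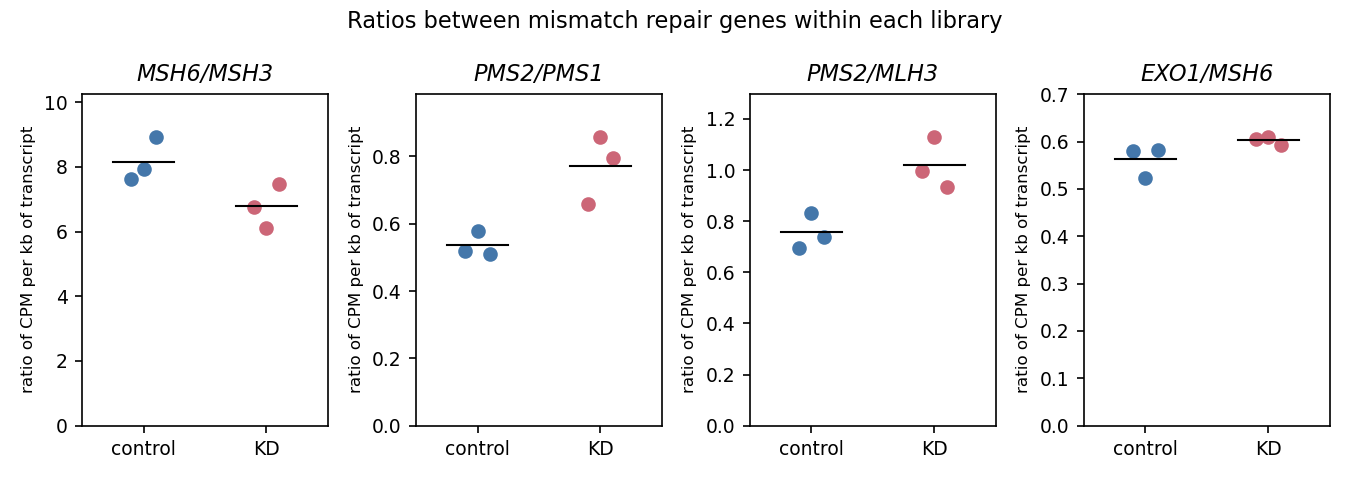
Ratio of TMM-scaled CPM per kb of canonical transcript (y axis, from 0) between pairs of mismatch repair genes in each control (blue) and IGF2BP3 KD (red) library, with a line at each mean. *MSH6* to *MSH3* is lower in IGF2BP3 KD cells, both *PMS2* ratios are higher, and *EXO1* to *MSH6* moves least, by a factor of 1.07.

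*EXO1* (ENSG00000174371, plus strand, chr1:241847967-241895148), the exonuclease of the pathway, was counted 4303, 3981 and 3487 times in control and 2524, 2812 and 3080 times in IGF2BP3 KD replicates 1, 2 and 3. These were 62.8, 57.2 and 59.5 CPM in control and 46.8, 45.3 and 48.9 CPM in IGF2BP3 KD cells. The groups did not overlap. The mean fell from 59.8 ± 2.85 to 47.0 ± 1.79 CPM (SD, n = 3), and its log2 fold change was -0.35 with a standard error of 0.05 (edgeR, adjusted p = 8.5e-04). It was called in all 6 fits that left out 1 library, with values between -0.38 and -0.31. *EXO1* fell nearly as far as *MSH6*: the ratio of *EXO1* to *MSH6* was 0.581, 0.524 and 0.582 in control and 0.606, 0.61 and 0.592 in IGF2BP3 KD replicates 1, 2 and 3, a rise of 0.10 on the log2 scale without overlap (p = 0.1 from the exact permutation test). Without control replicate 2 this difference was 0.05.

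Per kb of the canonical transcript, *MSH6* had the highest control level of the 6 genes, 30.9 ± 1.06 CPM per kb (SD, n = 3), followed by *EXO1* at 17.3 ± 0.827. *PMS1* at 5.59, *MLH3* at 3.97, *MSH3* at 3.81 and *PMS2* at 2.85 to 3.22 CPM per kb came far below. The ranges of *MLH3* and *MSH3* overlapped, from 3.86 to 4.19 and from 3.32 to 4.11 CPM per kb, so their order is not resolved. In IGF2BP3 KD cells *PMS2*, on the same length, was at 3.77 CPM per kb, beside *MLH3* at 3.71 and above *MSH3* at 3.34, with ranges of *PMS2* and *MLH3* that overlapped. This order depends on the length used. Per kb of all annotated exons, the length planned at first, *EXO1* was at 14.5 CPM per kb in control cells, *MSH6* at 7.43, *MLH3* at 3.72, *PMS1* at 3.24, *MSH3* at 3.17 and *PMS2* at 1.36. On that length *PMS2* was last in IGF2BP3 KD cells too, at 1.71 CPM per kb, below *MSH3* at 2.79, *PMS1* at 2.86 and *MLH3* at 3.47. The annotation gives *MSH6* a union of 17.7 kb of exons against a canonical transcript of 4.27 kb.

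The promoters were read for the words of E2F, the transcription factors that switch on S-phase genes. RefSeq windows of 300 bases, from 250 before to 50 after each start (GRCh38.p14, the hg38 build) were found for all 6 genes, 11 windows in all, and searched on both strands for TTTCCCGC, TTTCGCGC, TTTGCCGC and TTTGGCGC. *MSH6*, *MSH3*, *PMS2* and *EXO1* held such a word and *PMS1* and *MLH3* held none. Such a word was in 5 of the 11 windows, of which the 2 of *PMS2* overlap and hold the same site, against 3.31% of 35116 windows of all genes. In *MSH6*, with 4 windows, and *EXO1*, with 2, not every window held it. The windows of all genes were not limited to tested genes and were not matched for GC content. The GC content of the 11 windows was 51.0% to 78.0%. Of the 24 genes that act with the 6, listed below, 21 had windows, and 5 of these 28 windows held such a word. For the 3 called genes, the 30 bases around the word are shown on the strand of the gene, with the word in capitals.
*MSH6*: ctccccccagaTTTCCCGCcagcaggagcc
*PMS2*: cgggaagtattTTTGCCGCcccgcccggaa
*EXO1*: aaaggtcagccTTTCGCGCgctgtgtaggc

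These lie at chr2:47783137-47783166 for *MSH6*, chr7:6009131-6009160 for *PMS2* and chr1:241848197-241848226 for *EXO1*. Of the 4 genes with a word, *MSH6* and *EXO1* were lower, *PMS2* was higher and *MSH3* was not called, so the word was present in genes of each outcome. A match describes the letters in the window and not binding. The CCAAT box, which 34.6% of all windows hold, was found in *MSH6*, *PMS1* and *PMS2*, in 4 of the 11 windows.

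The 3′ UTRs of the canonical transcripts (GENCODE v44) were searched for 2 words of 7 bases that earlier work on these libraries had linked to lower (GATTACT) and higher (ACACATC) expression in IGF2BP3 KD cells. None of the 6 genes held GATTACT, which 7.69% of 13939 tested genes with a 3′ UTR hold, and so neither *MSH6*, with a 3′ UTR of 93 bases, nor *EXO1*, with 339 bases, did. *PMS2*, with a 3′ UTR of 2474 bases, was the 1 gene of the 6 with ACACATC, which 9.53% of the tested genes hold. The words were found in the same libraries, so this match is a description and no independent evidence. The word starts at base 112 of the 3′ UTR, at chr7:5973269-5973298 with the bases around it:
*PMS2*: ttaaaaaaaatACACATCacacccatttaa

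UGGAC is a sequence known from sites that m6A readers of the IGF2BP family bind. Written as TGGAC, it was in the 3′ UTR of *MSH3* and *PMS2* and not of the other genes, against 61.4% of the tested genes. The 3′ UTRs of *MSH6*, *PMS1* and *EXO1* have 93, 193 and 339 bases, against a median of 1257 over the tested genes. They thus leave less room for a word, while *MLH3* has 3307 bases without it.

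Some of these genes start head to head with another gene. The start of *PMS1* lies 279 bases from that of *ORMDL1*, a regulator of sphingolipid synthesis, and the start of *PMS2* 125 bases from that of *AIMP2*, a scaffold of the aminoacyl-tRNA synthetase complex. *AIMP2* was at 19.8, 18.3 and 21.4 CPM in control and at 16.7, 16.6 and 17.1 CPM in IGF2BP3 KD replicates 1, 2 and 3. It was called lower, at -0.24 on the log2 scale (edgeR, adjusted p = 0.048), while *PMS2* was higher at 0.33. The difference between both genes was not tested. *ORMDL1* had a log2 fold change of -0.16 (adjusted p = 0.088), near the -0.18 of *PMS1*. The sum of *PMS1* and *ORMDL1* was called lower at -0.17 (adjusted p = 0.029, edgeR). Each gene had a value below 0 by itself, so the sum had to lie below 0. Its call is not a call of either gene. A long non-coding RNA beside *EXO1*, *RP11-553N16.6*, had at most 16 counts in a library and was not tested.

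**Figure D3:**
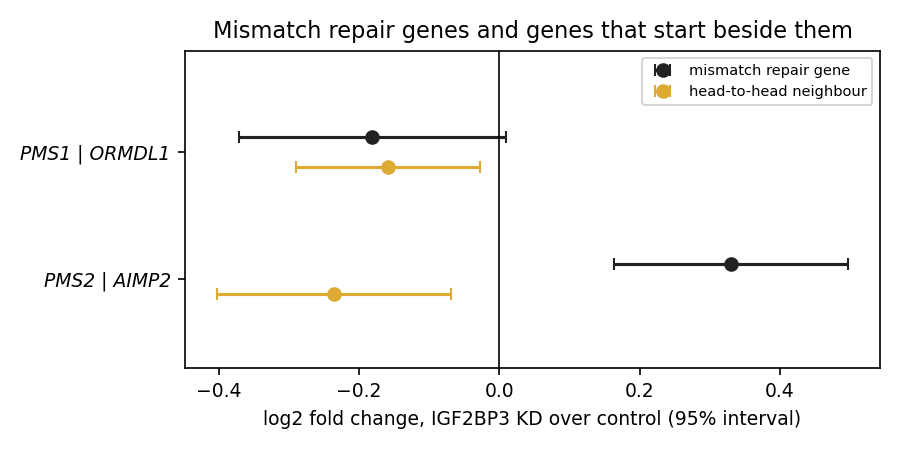
Log2 fold change between IGF2BP3 KD and control (x axis) with 95% intervals for *PMS1* and *PMS2* (black) and the gene that starts beside each on the other strand (yellow). *PMS2* and *AIMP2* lie on opposite sides of 0.

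A list of 24 genes that act with the 6, compiled by role, gave 23 tested genes, of which 14 were lower, none was higher and 9 were not called. Of all tested genes, 10.6% were called lower and 9.87% were called higher. The median log2 fold change was -0.26 over the 23 genes and 0.01 over all tested genes. The groups did not overlap in the 14 lower genes, nor in *RPA3*, *POLD2* and *POLD4*, whose IGF2BP3 KD libraries lay above the control libraries, against 35.8% of all tested genes in either direction. The list was compiled with earlier results of these libraries known, and 4 of its genes belong to the S-phase genes above.

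Of the genes of the clamp and its loader, 6 of 6 were called lower, against 10.6% of all tested genes. *PCNA*, the sliding clamp that directs *PMS2* to the new strand, went from 264, 249 and 245 CPM in control to 192, 191 and 193 CPM in IGF2BP3 KD replicates 1, 2 and 3, a log2 fold change of -0.39. *RFC4*, a subunit of the loader, fell furthest of the 23 genes, at 47.9 ± 2.10 CPM in control and 31.5 ± 1.06 CPM in IGF2BP3 KD cells, or -0.60 on the log2 scale. *RFC2*, *RFC3*, *RFC5* and *RFC1*, the other loader subunits, had values of -0.34, -0.31, -0.26 and -0.17.

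Of the genes of RPA, which coats the strand that *EXO1* exposes, *RPA2* at -0.35 and *RPA1* at -0.22 were lower. *RPA3*, the smallest subunit, had a log2 fold change of 0.24 and was not called (adjusted p = 0.065). Resynthesis was split too. *POLD1*, the catalytic subunit of DNA polymerase delta, and *POLD3*, an accessory subunit, were lower at -0.39 and -0.44, and *LIG1*, the ligase, was lower at -0.26. *POLD2* at 0.06 and *POLD4* at 0.13, the remaining subunits of the polymerase, were not called.

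Of the other factors, *MCM8*, a helicase of recombination, was lower at -0.53. *MCM9*, its partner, had a value of 0.04 and was not called, and neither were *SETD2* at -0.04, which writes the histone mark that *MSH6* binds, *FAN1* at -0.14, a nuclease that binds MutL proteins, and *HMGB1* at 0.03, a chromatin protein. Of the nucleases related to *EXO1*, *FEN1* at -0.57 and *GEN1* at -0.35 were lower and *ERCC5* at -0.03 was not called. *FEN1*, which trims Okazaki fragments, alone among the 24 held GATTACT, against 7.69% of the tested genes with a 3′ UTR. The other lower genes of the list lacked this word, which was found in these same libraries. Of the MutS homologs of meiosis, *MSH5* had a value of 0.02 with a standard error of 0.19, and *MSH4* had 0 counts in each control library and 8, 4 and 10 in IGF2BP3 KD replicates 1, 2 and 3, too few to be tested.

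**Figure D4:**
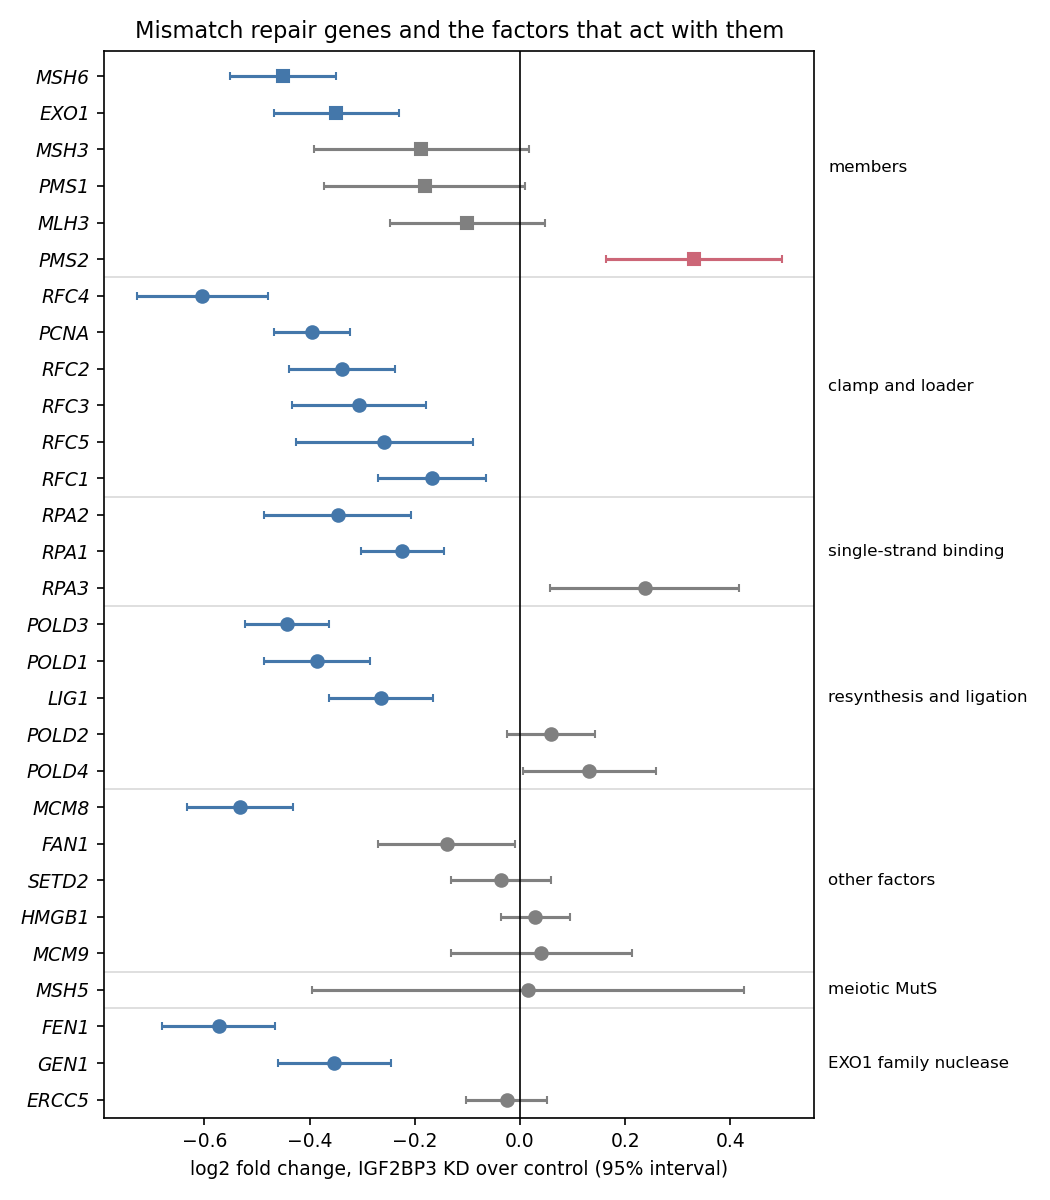
Log2 fold change between IGF2BP3 KD and control (x axis) with 95% intervals for the 6 mismatch repair genes (squares) and 23 genes that act with them (circles), by role, with lower genes in blue, higher in red and genes not called in grey. All 6 genes of the clamp and loader lie below 0, and *PMS2* is the 1 red point.

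The profiles of *MSH6* and *EXO1* over the 6 libraries, each as log2 CPM around its own mean, had a root mean square distance of 0.073, the smallest between any 2 of the 6 genes. The distance of *PMS2* was 0.399 to *MSH6*, the largest, and 0.242 to *MLH3*, its nearest. With genes under a mean of 1 CPM left out, the profiles nearest to *MSH6* were those of *FBXW11* at 0.027 and *RAP1B* at 0.030, and those nearest to *EXO1* were *RDX* at 0.019 and *NEMP1* at 0.021. *PMS2* was nearest to *RP3-475N16.9* at 0.027 and *ARHGAP1* at 0.030. *MLH3* lay nearest to *GBE1* at 0.013 and *HERPUD1* at 0.026, *PMS1* to *NUDT4B* at 0.023 and *PGBD2* at 0.024, and *MSH3* to *BCDIN3D* at 0.039 and *DMAP1* at 0.040. With 6 libraries and 19778 genes, such near profiles describe these libraries only.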

How the data were processed

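RNA-seq was done on 3 control and 3 IGF2BP3 KD libraries of OE-19 cells. Per the labels and the paper's methods, the authors trimmed reads with fastp, aligned paired reads to hg38 with HISAT2 and deposited counts per gene from featureCounts, without normalization. Tool versions, annotation release and strand setting are not given in the sources used here. Groups and replicate numbers come from the sample titles.

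Here, 132 repeated entries were dropped, leaving 60480 identifiers. Counts were scaled with TMM, filtered with filterByExpr (minimum count 10, minimum total 15) and tested with glmQLFit and glmQLFTest of edgeR 4.0.16 in R 4.3.3, with Benjamini-Hochberg adjustment over 19778 genes. The script was tested on simulated data, where it recovered 31.3%, 59.7% and 92.4% of genes given log2 changes of 0.3, 0.5 and 1. A gene that was not called can thus have changed. Between libraries of the same group, a chi-square per degree of freedom over genes was 9.86 to 17.6, so none repeats another. Ratios were tested with two-sided exact permutation tests. Gene positions, exon lengths and transcripts come from GENCODE v44 and promoters from RefSeq. Head-to-head neighbours start within 1000 bases on the opposite strand. The S-phase list is that of Seurat 5.3.0 without the members.

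Named are all 6 members, the listed genes that act with them, neighbours, *PMS2* copies and the 2 nearest profiles of each member. Members and lists were chosen with earlier results of these data known. Other mismatch repair genes, neighbours of *MSH3* and a planned sum for it are not reported here. Alternatives were DESeq2 1.42.0, RLE scaling, other filters, a threshold of 0.01, a replicate block, removed trends on GC content or exon length (lowess span 0.3), leaving out each library, and summed overlapping genes. Levels per kb were planned on all annotated exons. The canonical transcript length, used for the levels and ratios printed, and the sums with *FBXO11* and *ORMDL1* were added after the data were seen.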

Additional observations from a re-analysis of the deposited data

How the results depend on the processing

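Of the 6 genes, 2 were lower under each of the 15 alternatives except without IGF2BP3 KD replicate 1, where *PMS1* made it 3. The number called higher ranged from 0 to 1 when each library was left out in turn, with 0 without IGF2BP3 KD replicate 2. *MSH6* and *EXO1* were called under each of their 16 and 15 alternatives, respectively, with log2 fold changes from -0.50 to -0.42 and from -0.38 to -0.31. Those of *MSH6* include its sum with *FBXO11*. The sum of *PMS1* and *ORMDL1* was called lower at -0.17, which is not a call of *PMS1* alone. *PMS2* was called in 15 of 16, with values from 0.29 to 0.38. Those of *PMS2* include its sum with its copies. At a threshold of 0.01 the counts over all genes were 1314 lower and 1098 higher in place of 2088 and 1953. With the replicate block, *PMS2* had a log2 fold change of 0.33 and *MSH6* of -0.45, and none of the 6 calls changed. The sample titles do not say whether same-numbered libraries were prepared together. The deviations of same-numbered libraries from their group means correlated at -0.03, -0.09 and -0.08, so no shared replicate effect was seen. Each of the 4 ratios kept its direction in the 6 fits that left out 1 library. Scaling and transcript length cannot change the log2 difference of a ratio. With 3 libraries per group, an exact permutation test cannot go below 0.1, and the 95% intervals of *MSH3*, *PMS1* and *MLH3* hold 0 and reach down to -0.39, -0.37 and -0.25.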
